A study of Oryza sativa with 12 samples.

Results

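Sucrose synthase cleaves sucrose, with UDP, into fructose and UDP-glucose. The 4 rice sucrose synthase genes described here, SUS1, SUS2, SUS3 and SUS4, were measured by 5 of the 57381 probe sets of an Affymetrix rice array, on which 17905 genes have a probe set of their own. They were chosen as every probe set that the array annotation pairs with one of these genes, by its symbol or a synonym in the RefSeq gene table. SUS1 (LOC4333062) has 2 probe sets, of which the brighter leads here, and SUS2 (LOC4340386), SUS3 (LOC4343910) and SUS4 (LOC4332788) have 1 each. Older names of the first pair cross: the gene table gives RSs2 as a synonym of SUS1 and RSS1 as a synonym of SUS2. All 5 probe sets passed the filter on low values.

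UDP-glucose is the substrate of cellulose synthase at the plasma membrane, and in the rice grain it also feeds the route to ADP-glucose and starch. Invertases cleave sucrose by another reaction, into glucose and fructose. In flowers and developing grains, which import sucrose, the balance of these enzymes sets how incoming sugar is used. SUS3 and SUS4 are known in rice for expression in the filling grain, SUS1 for expression in elongating vegetative tissue, and SUS2 for expression in most organs.

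Panicles of the cultivars IR64, labelled heat susceptible, and Nagina22 (N22), labelled heat tolerant, were profiled on 12 arrays, with 3 arrays each for control and heated panicles of either cultivar (4 groups). Heated plants were tagged at booting and kept for 8 days, nights included, in a facility 5 °C warmer than the outside air, and panicles of their main tillers were then taken. Control panicles were tagged at booting and taken on the same day from plants in the open field beside the facility, so heat and growing site cannot be told apart. Nothing in the labels says that replicates are separate plants or how many were pooled, so the p-values measure only the spread between these samples, which may be technical.

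Values are log2 expression values after GCRMA, between a floor of 2.29 and a highest value of 15.83. A value at or under 4.203, the highest of 64 reporter probe sets on the same arrays, is called background here. Between 33.2% and 34.5% of probe sets lay above that level on each array. The 2 cultivars differed widely in tissue markers: 3 of 4 endosperm markers (the glutelin genes GLUA1 and GLUA2 and the allergen gene RAG1) were at background on all IR64 arrays, while all 4 were above it on all N22 arrays. The remaining marker, the starch synthase gene WX, was not at background in IR64 on its leading probe set, but other WX probe sets were. The summed endosperm marker level was 6.10 to 8.51 in IR64 control, 4.82 to 6.59 in IR64 heat, 16.49 to 16.54 in N22 control and 16.38 to 16.45 in N22 heat (log2, lowest and highest array). In control panicles, 5 of 5 green tissue markers were lower in N22 (median log2 difference -3.60), and heat raised 5 of 5 in N22 (median 3.37) and in IR64 raised 3 and lowered 1. Floral organ markers were lower in N22 control for 8 of 9 genes, and heat raised 6 and lowered 1 in N22 and raised 4 and lowered 4 in IR64. Among all 29803 probe sets tested, 35.6% were lower in N22 control at a limma adjusted p under 0.05. Heat raised 23.9% and lowered 27.8% of them in N22, and raised 24.2% and lowered 27.5% in IR64. Of the tapetum and pollen markers, TDR and CYP703A3 were at background in every group, while MSP1 had group means from 8.13 to 9.86, was higher in N22 control (1.73 ± 0.09, limma adjusted p = 1.68e-08) and fell in heated N22 (-1.02 ± 0.09, adjusted p = 3.83e-06). The part of these markers in the sucrose synthase differences was not tested.

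Of the 4 genes, SUS1 changed most under heat, in IR64. On its leading probe set the log2 values were 11.88, 11.89 and 11.98 in IR64 control and 5.58, 5.62 and 5.77 in IR64 heat. In N22 they were 10.12, 10.09 and 9.94 in control and 9.82, 9.96 and 9.73 in heat. The 3 heated IR64 arrays stood far below all others, the unheated IR64 arrays were the highest, and the N22 control and N22 heat arrays overlapped.

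Heat lowered SUS1 in IR64 by a log2 difference of -6.26 ± 0.08 (SE, n = 3 against 3), or 76.6-fold, with an adjusted p of 8.4e-12 (limma, Benjamini-Hochberg over all probe sets tested). It was the 9th largest fall among the 29803 probe sets tested. In bulk panicles, fewer cells of a type and less RNA per cell cannot be told apart. In N22 the log2 difference was -0.21 ± 0.08 (adjusted p = 0.0435), which is 1.16-fold, and its 95% interval ran from -0.39 to -0.04. That small call did not hold under several settings: limma's adjusted p was 0.0821 without the filter on low values, 0.0728 with the replicate number as a block and up to 0.152 with 1 array left out. The difference between the 2 heat effects was 6.04 ± 0.11 on the log2 scale (adjusted p = 2.38e-10).

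The second SUS1 probe set (an x_at set) carries the array maker's mark for probes that may also bind other transcripts. It read 8.00, 8.10 and 8.39 in IR64 control and 3.17, 3.33 and 3.26 in IR64 heat. In N22 it read 6.69, 6.72 and 6.67 in control and 6.68, 6.81 and 6.74 in heat. All 3 heated IR64 arrays were at background, so the fall in IR64 was at least 15.6-fold (means 8.16 and 3.25, adjusted p = 8.83e-11). In N22 the log2 difference was 0.05 ± 0.09 (adjusted p = 0.721), with a 95% interval from -0.15 to 0.26. Both probe sets thus gave a large fall in IR64 and disagreed on the sign of the small difference in N22.

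**Figure D1:**
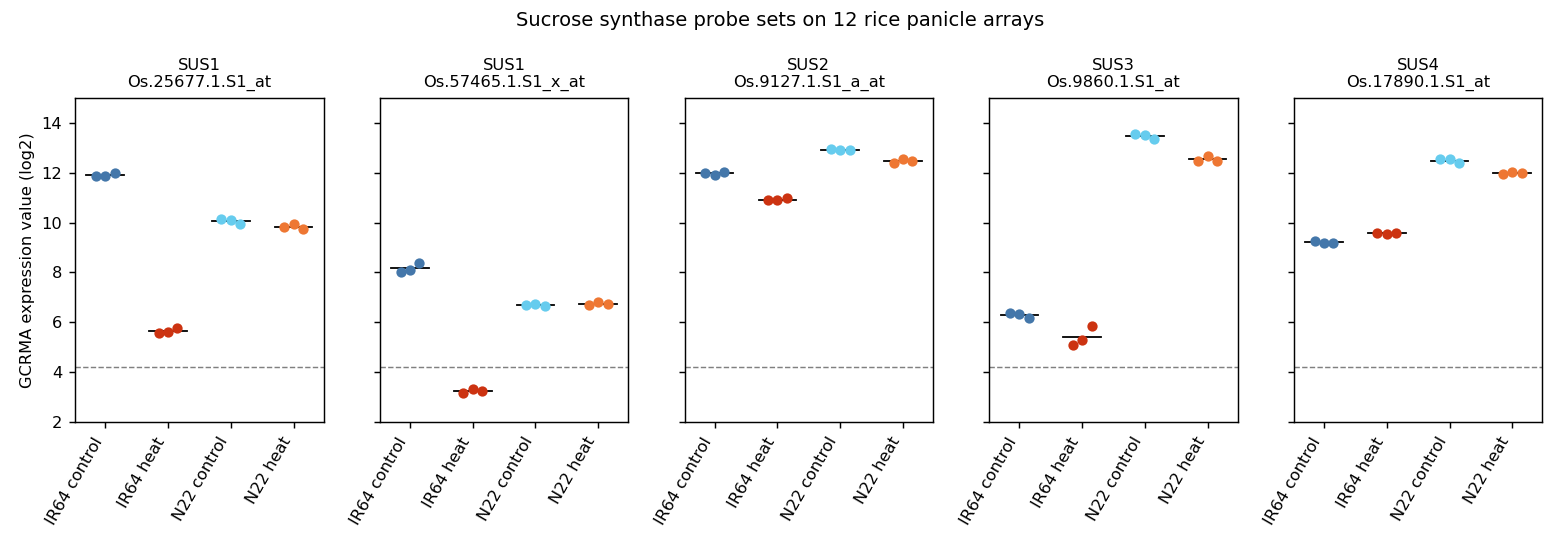
GCRMA log2 values of the 5 probe sets of SUS1 to SUS4 on the 12 arrays, with 1 point per array, a black line at each group mean and a dashed line at the background level of 4.203. The heated IR64 arrays are the lowest for both SUS1 probe sets (5.58 to 5.77 and 3.17 to 3.33), and the N22 arrays are the highest for SUS2, SUS3 and SUS4.

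RNA quality measures moved in the same comparison as the SUS1 fall. The log2 signal of the 3′ GAPDH control probe set minus that of the 5′ one went from 4.79 ± 0.18 in control to 7.93 ± 0.16 in heated IR64 (mean and SD of 3 arrays; two-sided exact permutation p = 0.1, the smallest that 3 against 3 allows). In N22 it was 8.59 ± 0.14 in control and 8.81 ± 0.17 in heat (exact permutation p = 0.2). The same measure for ubiquitin had means of 1.45 and 2.15 in control and heated IR64 and 2.21 and 2.04 in control and heated N22 (exact permutation p = 0.1 for each cultivar). The mean of the labelling spike-ins was 1.51 higher in heated than in control IR64, and that of the hybridisation spike-ins 0.70 higher (exact permutation p = 0.1 for each). The cultivars also differed, N22 minus IR64, by 3.80 in control and 0.88 in heat for GAPDH, and by 0.76 and -0.12 for ubiquitin (exact permutation p = 0.1 for each). For the labelling spike-ins these differences were 0.31 in control (exact permutation p = 0.4) and -1.02 in heat (p = 0.1). For the hybridisation spike-ins they were 0.60 in control (exact permutation p = 0.1) and -0.26 in heat (p = 0.2). The part of these measures in the SUS1 result and in the cultivar differences was not tested.

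SUS2, the widely expressed gene, was lower under heat in both cultivars. Its values were 12.003, 11.910 and 12.018 in IR64 control and 10.90, 10.89 and 10.98 in IR64 heat. In N22 they were 12.94, 12.93 and 12.91 in control and 12.41, 12.56 and 12.49 in heat. No groups overlapped, and N22 control was the highest and IR64 heat the lowest. The fall was 2.08-fold in IR64 (log2 difference -1.05 ± 0.05, adjusted p = 8.71e-08) and 1.36-fold in N22 (-0.44 ± 0.05, adjusted p = 6.08e-05). The N22 fall was the smaller by 0.61 ± 0.08 on the log2 scale (limma adjusted p = 6.48e-05).

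SUS3, one of the grain-associated genes, was separated mainly by cultivar. It read 6.37, 6.33 and 6.19 in IR64 control and 5.09, 5.28 and 5.84 in IR64 heat, and the heated arrays spread more widely than those of the other groups. In N22 it read 13.55, 13.52 and 13.35 in control and 12.49, 12.66 and 12.49 in heat. Every N22 array was far above every IR64 array, and within each cultivar the heated arrays were the lower. Heat lowered SUS3 by a log2 difference of -0.89 ± 0.16 in IR64 (adjusted p = 0.000859) and -0.93 ± 0.16 in N22 (adjusted p = 0.000692, limma). The difference between these effects was -0.03 ± 0.23 (adjusted p = 0.921), with a 95% interval from -0.54 to 0.48. A difference within that range is therefore not excluded by this fit.

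SUS4, the other grain-associated gene, moved in opposite directions. Its values were 9.27, 9.17 and 9.17 in IR64 control and 9.59, 9.54 and 9.57 in IR64 heat, a rise of 0.36 ± 0.06 on the log2 scale, or 1.29-fold (adjusted p = 0.000366). In N22 they were 12.54, 12.53 and 12.38 in control and 11.938, 12.027 and 11.997 in heat, a fall of 1.41-fold (log2 difference -0.50 ± 0.06, adjusted p = 3.92e-05). Neither pair of groups overlapped. The heat effects differed by -0.86 ± 0.08, N22 minus IR64 (limma adjusted p = 9.21e-06). The rise in IR64 was smaller than the 0.70 and 1.51 by which the spike-ins rose between the same arrays, whose part in it was not tested.

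Counted by gene, on the leading probe set of each, heat lowered 3 and raised 1 of the 4 genes in IR64, where 51.8% of all 29803 probe sets were called in either direction, 24.2% higher and 27.5% lower. In N22 it lowered all 4, SUS1 by the weak call above, where 51.7% were called, 23.9% higher and 27.8% lower. The median log2 difference was -0.97 over the 4 genes in IR64 and -0.47 in N22, against 0.00 and -0.01 over all probe sets. Heat effects differed between cultivars for 3 of the 4 genes, SUS3 being the exception, where 55.4% of probe sets were called, 29.3% with a higher and 26.1% with a lower effect in N22. Centring each array shifted the all-probe-set median by 0.11 in IR64 and -0.20 in N22 and the share of calls that were higher from 46.8% to 56.8% and from 46.2% to 29.3%, and every call of SUS1 to SUS4 on the leading probe sets kept its direction there.

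**Figure D2:**
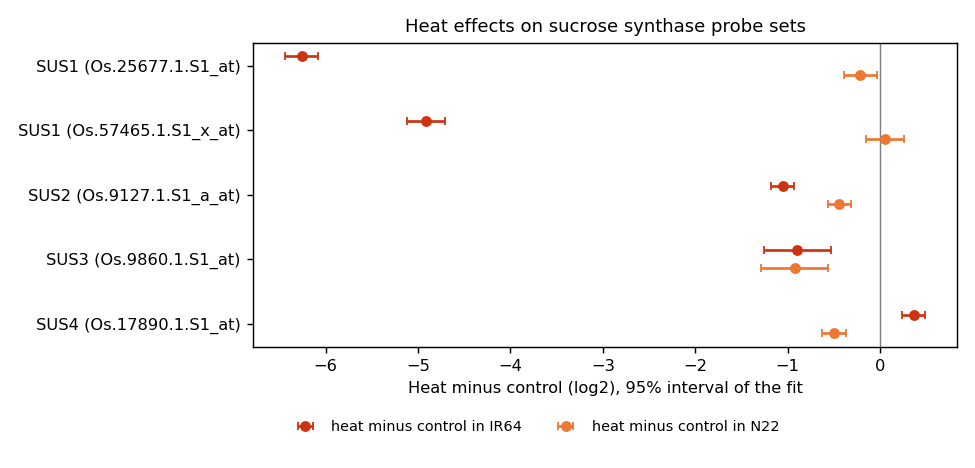
Heat minus control for each probe set of SUS1 to SUS4 in IR64 and in N22, as log2 differences with the 95% interval of the limma fit. The IR64 effect lies far left of the N22 effect for SUS1, the 2 effects of SUS3 cover the same range, and those of SUS4 lie on opposite sides of 0. The second SUS1 probe set is at background in heated IR64, so its IR64 point is no measured size.

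N22 was compared with IR64 in each condition, which asks where the genes already differ between a tolerant and a susceptible cultivar. In control panicles N22 was higher for SUS2, SUS3 and SUS4 and lower for SUS1, and 70.6% of all probe sets were called in this comparison, 35.1% higher and 35.6% lower. SUS3 was 144-fold higher (log2 difference 7.17 ± 0.16, adjusted p = 4.66e-11), SUS4 was 9.72-fold higher (3.28 ± 0.06, adjusted p = 8.56e-12) and SUS2 was 1.93-fold higher (0.95 ± 0.05, adjusted p = 5.07e-08). SUS1 was 3.64-fold lower (-1.86 ± 0.08, adjusted p = 4.76e-09, limma), and its second probe set also read lower (-1.47 ± 0.09, adjusted p = 1.01e-07).

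Under heat N22 was higher for all 4 genes, where 63.1% of probe sets were called, 29.6% higher and 33.5% lower. SUS3 remained 141-fold higher (log2 difference 7.14 ± 0.16, adjusted p = 8.06e-11), SUS4 was 5.36-fold higher (2.42 ± 0.06, adjusted p = 1.18e-10) and SUS2 was 2.95-fold higher (1.56 ± 0.05, adjusted p = 2.02e-09). SUS1 turned from lower to 18.2-fold higher in N22 (4.18 ± 0.08, adjusted p = 2.01e-11, limma), and its second probe set was at least 5.82-fold higher (adjusted p = 2.36e-10). The order of the SUS1 groups was therefore IR64 control, N22 control and N22 heat, which overlapped, and IR64 heat. Probe sequences were not used here, so a sequence difference between the cultivars at the probes cannot be told apart from a difference in transcript level. A difference in the stage that panicles had reached when taken likewise cannot be told apart from a cultivar difference here. RNA quality measures also differed between the cultivars, as given above, and their part in these differences was not tested.

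**Figure D3:**
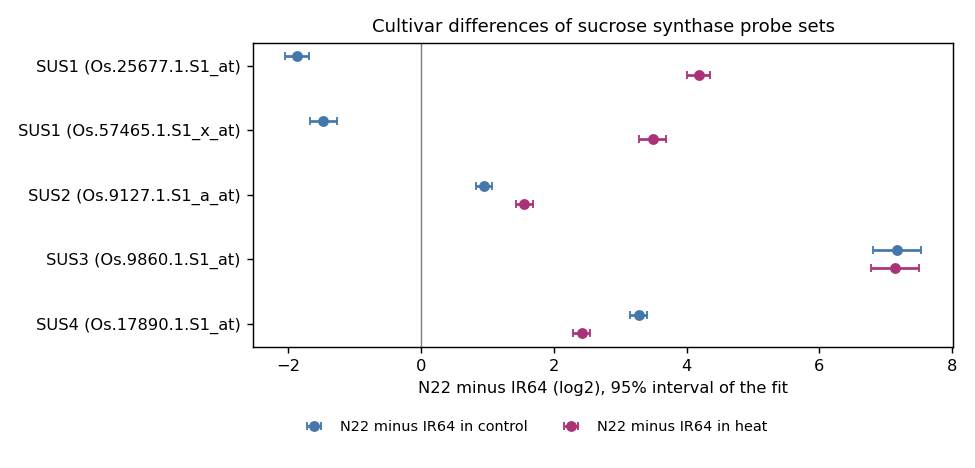
N22 minus IR64 for each probe set of SUS1 to SUS4 in control and heated panicles, as log2 differences with the 95% interval of the limma fit. SUS2, SUS3 and SUS4 lie right of 0 in both conditions, with SUS3 near 7, and both SUS1 probe sets change sides. The second SUS1 probe set is at background in heated IR64, so its heat point is no measured size.

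The cultivar differences of SUS3 and SUS4 ran beside those of starch and grain genes. AGPS2, a small subunit of ADP-glucose pyrophosphorylase, read 9.63 in IR64 control, 9.22 in IR64 heat, 14.35 in N22 control and 13.35 in N22 heat (log2 group means). Waxy (WX), the granule-bound starch synthase that makes amylose, was higher in N22 by 8.67 ± 0.78 in control and 10.47 ± 0.78 in heat (limma adjusted p = 2.08e-06 and 6.87e-07), on a probe set marked as able to bind other transcripts. The WX probe sets at background on all IR64 arrays were at least 1105-, 746- and 5.71-fold higher in N22 control. The seed storage protein genes GLUA1, GLUA2 and RAG1 were at least 936-, 1541- and 424-fold higher in N22 control (adjusted p = 4.24e-15, 3.86e-14 and 5.22e-13), where the glutelin probe sets may also bind related glutelin transcripts. These markers moved with SUS3 and SUS4 between cultivars, and their part in those differences was not tested. Within N22, heat lowered AGPS2 by a log2 difference of -1.0025 ± 0.08 (adjusted p = 2.8e-06) and RAG1 by -2.38 ± 0.12 (adjusted p = 1.17e-07), beside the falls of SUS3 and SUS4, while GLUA1 (0.13, adjusted p = 0.138) and GLUA2 (0.09, adjusted p = 0.45) were not called. WX was not called there on its leading probe set (-0.13, limma adjusted p = 0.96) but was called lower with its probe sets averaged (-0.77). Its probe sets at background in IR64 read 14.31, 13.745 and 6.72 in N22 control and 12.99, 11.97 and 5.66 in N22 heat (log2 group means).

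Genes of cellulose synthesis, which uses the product of sucrose synthase, fell in IR64 beside SUS1. All 4 genes of the secondary wall list, the cellulose synthases CESA4, CESA7 and CESA9 and the COBRA-like gene BC1, fell in heated IR64, with a median log2 difference of -5.80. That median is no exact size, because CESA9 was at background on all heated IR64 arrays and the CESA7 mean there was under the background level. CESA4 fell by a log2 difference of -5.95 ± 0.09 (adjusted p = 2.28e-11) and BC1 by -5.65 ± 0.13 (adjusted p = 3.36e-10), and CESA9 fell at least 20.8-fold (adjusted p = 8.83e-11). Of the 6 other cellulose synthase genes, 5 fell, with a median of -1.46 (-0.78 with the probe sets of each gene averaged), and CESA8, a synthase of the primary wall, fell most clearly (-3.66 ± 0.10, adjusted p = 1.26e-09). Among all probe sets tested, 27.5% were called lower in heated IR64.

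In N22, heat raised BC1 (0.84 ± 0.13, adjusted p = 0.000282) and called no other secondary wall gene, although CESA4 was called lower with arrays centred (-0.39, adjusted p = 0.00459). BC1 lay close to background in N22 control. CESA7 and CESA9 were at background on all arrays of both N22 groups, so a heat effect on them could not be measured there. Of the other cellulose synthases 3 rose, 1 fell and 2 were not called, where 51.7% of all probe sets were called. Among those that rose, CESA3 lost its call with arrays centred (0.06, adjusted p = 0.535). SUS1 parted from the secondary wall genes between cultivars. CESA4 read 12.87 in IR64 control but 7.23 and 7.03 in N22 control and heat (log2 group means), and CESA9 was at background in N22, whereas SUS1 read 10.05 and 9.84 there. CESA8 followed SUS1 more closely, at 10.64, 6.98, 9.52 and 9.41 in control and heated IR64 and control and heated N22.

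**Figure D4:**
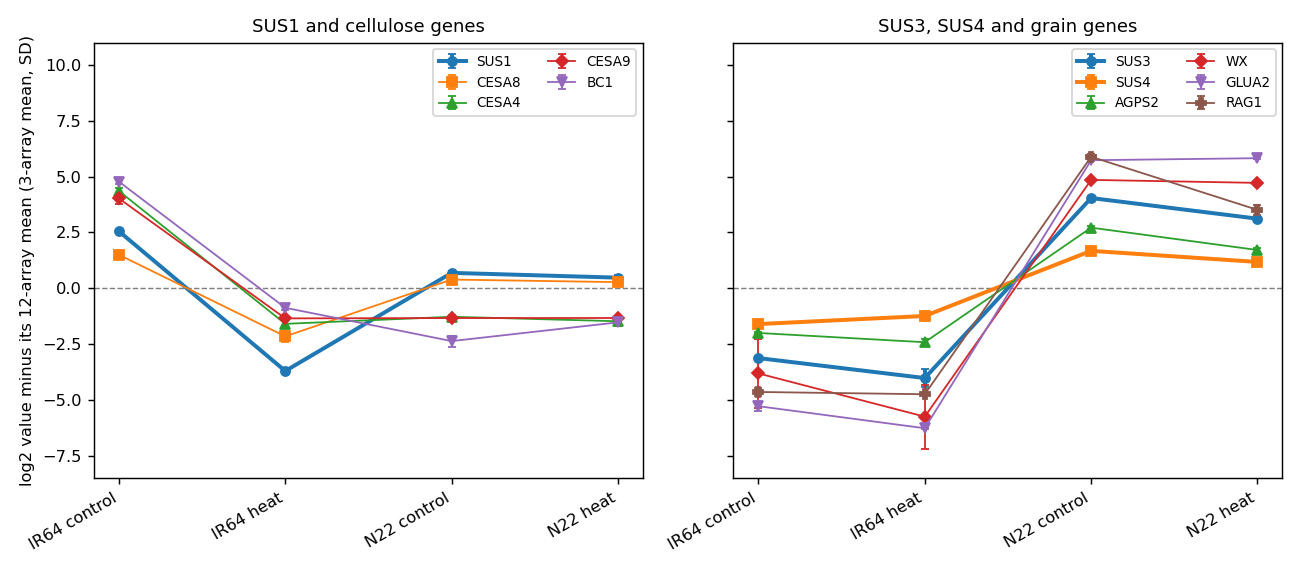
Group means of log2 values, each minus that probe set's mean over the 12 arrays, with error bars of 1 SD over 3 arrays, for SUS1 with cellulose genes (left) and SUS3 and SUS4 with starch and seed protein genes (right). SUS1 and CESA8 are lowest in IR64 heat and near or above 0 in N22, while CESA4, CESA9 and BC1 stay below 0 there, and SUS3 and SUS4 are high in N22 with the grain genes. CESA9 in 3 groups and GLUA2 and RAG1 in IR64 are at background, where distances are no measured size.

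Among the enzymes that compete with sucrose synthase, the cell wall invertases split sucrose outside the cell. In IR64, 1 of 4 rose and 2 fell under heat (median log2 difference -0.85), where 51.8% of all probe sets were called. CIN1 fell (log2 difference -2.60 ± 0.18, adjusted p = 7.56e-07) and CIN7 rose (1.46 ± 0.12, adjusted p = 2.07e-06). In N22, where 51.7% of all probe sets were called, 3 of 4 rose and none fell. Among them were CIN7 (1.80 ± 0.12, adjusted p = 5.05e-07) and CIN1 (1.58 ± 0.18, adjusted p = 3.27e-05). The third, CIN4, rose from background on all N22 control arrays (mean 3.45) to a mean of 4.54, at least 1.26-fold. The heat effects on CIN1 differed by 4.18 ± 0.25 (adjusted p = 3.93e-07, limma). Of the neutral invertases, which act inside the cell, NIN1 fell in IR64 (-1.15 ± 0.11, adjusted p = 7.82e-06) and was not called in N22 (-0.12 ± 0.11, adjusted p = 0.425), but was called lower there with arrays centred (-0.31, adjusted p = 0.0215).

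Downstream of the cleavage, hexokinases phosphorylate the hexoses that are released. Of 7 hexokinase genes, 3 fell and 1 rose in heated IR64, and 6 fell and none rose in heated N22, beside the 51.8% and 51.7% of all probe sets that were called. The gene listed as HXK2 and HXK6 fell in both, by log2 differences of -1.47 ± 0.09 and -1.82 ± 0.09 (adjusted p = 2.7e-07 and 7.2e-08). The fructokinase gene FRK1, which acts on the fructose from sucrose synthase, fell in IR64 (-1.83 ± 0.15, adjusted p = 3.46e-06) and was not called in N22 (-0.06 ± 0.15, adjusted p = 0.844), with a difference between the effects of 1.77 ± 0.22 (adjusted p = 6.01e-05).

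For the synthesis of sucrose, 3 of 4 sucrose phosphate synthases fell and 1 rose in heated IR64, led by SPS2 (-1.67 ± 0.09, adjusted p = 1.02e-07), and 2 fell in N22, led by SPS1 (-0.70 ± 0.06, adjusted p = 4.56e-06). Both sucrose phosphatases, which make the last step, fell in IR64 and rose in N22, where SPP1 lost its call with arrays centred (0.06, adjusted p = 0.565). SPP2 changed by -1.39 ± 0.12 and 0.89 ± 0.12 on the log2 scale (adjusted p = 5.3e-06 and 0.000156). Of 4 sucrose transporters, 1 fell in IR64, and in N22 3 fell and 1 rose. Beside these counts of synthases, phosphatases and transporters, heat called 51.8% of all probe sets in IR64 and 51.7% in N22. SUT1, a transporter of the grain and phloem, fell in N22 (-0.85 ± 0.07, adjusted p = 4.84e-06).

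Of 11 SWEET sugar exporters, 3 rose and 4 fell in IR64, and 7 rose and none fell in N22, so that 7 were called in each, a share near those of all probe sets (51.8% and 51.7%). SWEET11, an exporter of the developing grain, fell in IR64 (-1.45 ± 0.04, adjusted p = 1.57e-09) and rose in N22 (0.51 ± 0.04, adjusted p = 3.17e-06). Of the 3 fermentation genes, the pyruvate decarboxylase PDC2 fell in IR64 (-1.14 ± 0.06, adjusted p = 6.76e-08) and the alcohol dehydrogenase ADH2 rose there (0.34 ± 0.07, adjusted p = 0.00119). None of the 3 passed the test in N22 under limma, nor did any have an unadjusted p under 0.05, while with arrays centred all 3 were called lower (-0.42 to -0.24, adjusted p = 0.0146 to 0.0425).

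**Figure D5:**
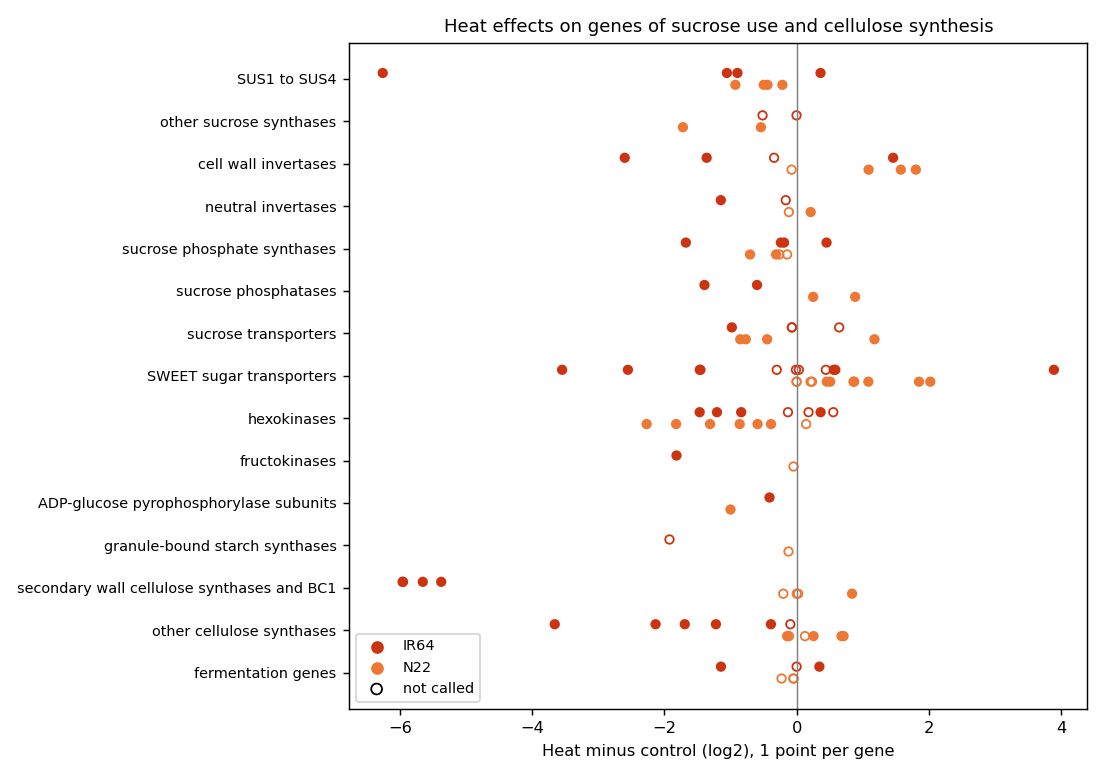
Heat minus control (log2) for the genes of each list, 1 point per gene and cultivar, filled where the adjusted p was under 0.05 and open where it was not. The SUS1 point at -6.26 stands beside the secondary wall genes in IR64, and in N22 the 4 SUS genes lie between -0.93 and -0.21. Points of genes at background in 1 group are no measured size.

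The other members of the family were dim. SUS5 (LOC4335447) read 3.27, 2.64 and 2.91 in IR64 control and 2.304, 2.505 and 2.458 in IR64 heat, all at background. In N22 control it read 5.64, 5.66 and 5.67, and in N22 heat 3.85, 3.33 and 4.64, where 1 of 3 arrays was above background. N22 control was at least 2.75-fold above IR64 control (means 5.66 and 2.94, adjusted p = 5.42e-06), and N22 heat was below N22 control (limma adjusted p = 0.000381). The size of that fall was not measured on the 2 heated arrays at background, and with values raised to background the log2 difference was -1.31. Both probe sets of SUS6 were at background on all 12 arrays, and SUS7 has no probe set in the annotation.

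Across the 12 arrays, the 5 named genes whose values ran most like each SUS gene were found among 2777 probe sets with a gene name. The arrays fall into 4 groups, so these Pearson correlations mostly describe the 4 group means. For SUS1 they were CESA8 (r = 0.996), OsPHAN (0.992), the HSP90-family gene HSP81-1 (0.991), the MAP kinase gene BIMK2 (0.989) and the actin depolymerising factor gene ADF-7 (0.989). For SUS2 they were the enolase gene AD709 (r = 0.994), the germin-like gene GER3 (0.991), the ribosomal protein genes RPS10 (0.991) and RPL39B (0.990), and the GTPase gene OsRan1 (0.990).

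For SUS3 the closest were the starch branching enzyme gene listed as Q-enzyme (r = 0.998), the trehalose phosphatase gene OsTPP3 (0.998), the nicotianamine synthase gene NAS2 (0.997), ADIPOR1 (0.997) and OsSAP5 (0.997). For SUS4 they were the grain width gene GW2 (r = 0.998), RASI (0.998), the MADS-box gene MADS22 (0.998), ARF14 (0.997) and osRAD23 (0.996). The SUS3 and SUS4 partners were all higher in both N22 groups than in both IR64 groups. That follows from their choice by correlation on these same arrays and is no separate result. GW2, for one, had group means of 5.43, 5.82, 10.40 and 9.75 in control and heated IR64 and control and heated N22. OsTPP3, NAS2, OsSAP5 and RASI had means under the background level in both IR64 groups, where distances are no measured size. The probe sets of Q-enzyme and OsSAP5 are x_at sets, which may also bind other transcripts.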

How the data were processed

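The authors deposited log2 values of 57381 probe sets on 12 arrays, made with GCRMA per the submitters' processing notes. GCRMA uses probe sequence to correct background, then normalises the arrays together and gives 1 value per probe set. Dim values end near a floor: 44.6% of values lie within 0.01 of the floor of 2.29. The sources used here give no version. No other normalisation was applied. Control probe sets (123) were left out, and probe sets above the table median of 2.35 on at least 3 arrays were tested (29803). limma 3.58.1 (R 4.3.3) fitted 4 group means over the 12 arrays (eBayes, 8 residual and 1.79 prior degrees of freedom), with 5 contrasts, Benjamini-Hochberg adjustment over all probe sets tested and a two-sided threshold of 0.05. The script was tested on simulated data. Precision is limited by having 3 arrays a group. Where 1 group was at background on all arrays, a fold is a bound, taken from the mean of the brighter group against the background level of 4.203.

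Probe sets were named from the platform annotation (22436 with 1 gene, 95 with several, 34850 with none) and the RefSeq gene table. The brightest probe set of a gene leads. The members and lists were chosen with earlier results of these data known. From each list, only genes among the 3 smallest adjusted p of a contrast are named, and list symbols shared with unrelated genes were left out before values were seen. The choice of probe sets with an informative gene name for the correlations was added to that rule. UDP-glucose pyrophosphorylases matched no gene by name. Nor did vacuolar invertases, once any gene also listed as CIN7 was left to the cell wall invertases. SUS6 was left out of the alternatives because it is at background, a choice made after its values were seen.

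Alternatives were no filter, a filter at 4.203, values raised to 4.203, arrays centred on the median of the tested probe sets, quantile normalisation, eBayes with trend and robust, the replicate number as a block, only the groups compared, each array left out and all probe sets of a gene averaged. The main fit used no replicate block. Deviations of same-numbered arrays correlated from -0.05 to 0.10 in 18 pairs, and those of other arrays from -0.11 to 0.06 in 36 pairs. These weak correlations do not settle whether the numbers pair the samples.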

Additional observations from a re-analysis of the deposited data

Results flagged for a closer look

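The heat effect differed between N22 and IR64, by a test of the difference itself in the limma fit, for 4 genes measured above background in some group. Among all 29803 probe sets tested, 55.4% were called in this contrast, 29.3% with a higher and 26.1% with a lower effect in N22. The differences (N22 minus IR64, log2) were 6.04 and 4.96 for the 2 SUS1 probe sets (adjusted p = 2.38e-10 and 1.8e-09), the second with heated IR64 at background, 0.61 for SUS2 (adjusted p = 6.48e-05), -0.86 for SUS4 (adjusted p = 9.21e-06) and -1.20 for SUS5 (adjusted p = 0.0231). The SUS5 difference rests on values mostly at background. A SUS6 difference of -0.54 (adjusted p = 0.0391) also passed the threshold, with all 12 arrays at background, where GCRMA values have no usable order.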

How the results depend on the processing

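Of the results for SUS1 to SUS5, 228 of 234 kept their side of the threshold under the other settings, and none that was called changed direction. The small SUS1 difference in heated N22 lost its call without the filter (log2 difference -0.21, adjusted p = 0.0821), under quantile normalisation (-0.19, adjusted p = 0.0607), with the replicate block (-0.21, adjusted p = 0.0728) and with only the groups compared (-0.21, adjusted p = 0.0926), all in limma. It kept the call under 4 other settings, at -0.41 and adjusted p = 0.00287 with arrays centred. With 1 array left out it lay between -0.28 and -0.16 (adjusted p = 0.0178 to 0.152) and lost the call in 8 of 12 cases. The SUS5 difference of heat effects was lost without the filter (adjusted p = 0.0706) and without IR64 control replicate 2 (0.057) or N22 heat replicate 1 (0.0501), and SUS5 in heated N22 against heated IR64 was lost with values raised to background (0.15, adjusted p = 0.203). Leaving out N22 heat replicate 3 called SUS5 lower in heated IR64 (-0.51, adjusted p = 0.0303), where all arrays are at background. Centring the arrays shrank the SUS2 difference of heat effects to 0.31 (adjusted p = 0.0156) and turned the uncalled difference of the second SUS1 probe set in heated N22 to -0.14 (adjusted p = 0.274). The cause was not tested. The replicate block changed no other call of a SUS gene. Of the results for the other genes open to naming, 1549 kept their side, 19 lost and 31 gained a call under the settings, and no called one reversed. With the probe sets of each gene averaged, heat in N22 called 2 rather than 4 of the other cellulose synthases and 2 rather than 1 of the secondary wall genes, and 3 rather than 4 of SUS1 to SUS4. The median of the other cellulose synthases in heated IR64 was then -0.78 rather than -1.46. GCRMA's floor limits what can be said of dim genes.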
